A study of Mus musculus with 12 samples.

Results

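Polysome mRNA of mouse neural stem cells (NSCs) grown in high folate was compared with polysome mRNA of the same cells grown in low folate, the ends of the dose range of the study. The 4 RNA BS-seq libraries compared, of 12 in the series, were taken by their labels: replicates 1 and 2 of pHF against replicates 1 and 2 of pLF. Both groups were NSCs cultured from the subventricular zone of wild-type male C57BL/6 mice, and both had been kept for 4 days in folic acid, at 80 µM in pHF and at 1.5 µM in pLF. In both, RNA came from polysome fractions with more than 3 ribosomes, collected after cycloheximide. The 2 libraries of the intermediate concentration, 10 µM (pMF), entered no test and are given only to place a value between the ends. The replicates are described as biological duplicates, and with 2 libraries against 2 an exact permutation test of a single value cannot give a p below 0.33.

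Folate carries one-carbon units for the synthesis of purines and thymidylate and for the remethylation of homocysteine to methionine. Methionine is turned into S-adenosylmethionine, the methyl donor of RNA methyltransferases. In mRNA, 5-methylcytosine (m5C) is written mainly by NSUN2, at cytosines followed by a G-rich stretch, and by NSUN6, at cytosines that start the letters CTCCA. It is bound by proteins such as ALYREF and YBX1. RNA bisulfite sequencing reads it at single bases, since bisulfite turns unmethylated cytosines into uracil and leaves m5C as C. Polysomes are mRNAs that carry several ribosomes, so these libraries describe the transcripts under translation.

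The cytosines compared were the high-confidence m5C sites that the study lists for pLF, for pHF or for both. The sequences of those on which the results turn are given here as 21 bases of the RNA strand, written as DNA from 5′ to 3′, with the methylated cytosine and the motif it starts in capitals (the cytosine alone where it starts none of the motifs searched). The first set shows sites with large differences in level between pLF and pHF, followed by the deeply covered sites of Fscn1, Fbln2 and Glod4.
Rab11fip1, position 27140340 of chromosome 8, minus strand: aggctggtgaCAGGGagagcc
Fahd2a, position 127436616 of chromosome 2, minus strand: actctttaccCAGGGgacctc
Foxp4 site 1, position 47878676 of chromosome 17, minus strand: cttgctcaacCTCCAgaggca
Foxp4 site 2, position 47878447 of chromosome 17, minus strand: cgagggtgccCCGGGgcagcc
Gm13882, position 104292294 of chromosome 2, plus strand: tgtgttcgtcCtggatctgac
Flad1, position 89402579 of chromosome 3, minus strand: agatgcccttCgaggcactgg
Klhl26, position 70455581 of chromosome 8, minus strand: tggcctcctgCAGGGcctggc
Crtap, position 114390233 of chromosome 9, minus strand: gcgctgcaagCAGGGcctgcc
Gpr137, position 6939039 of chromosome 19, minus strand: tgggcttcttCCGGGtacacc
Gpaa1, position 76331363 of chromosome 15, plus strand: gtcaagctgcCgcgagagcag
Fscn1, position 142961220 of chromosome 5, plus strand: cgccctggaaCagagctgcgc
Fbln2, position 91268545 of chromosome 6, plus strand: cagatgtgaaCgagtgcgaga
Glod4, position 76233242 of chromosome 11, minus strand: ctggacacccCAGGGaaagcc

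The second set shows 13 of the 14 sites whose cytosine starts the letters CAAATG (the sequence of the other, outside genes, is not printed), because they resemble each other beyond the letters that were searched.
Mr1, position 155132384 of chromosome 1: ctgtggtcgcCAAATGgttct
B230118H07Rik, position 101586456 of chromosome 2: ataatgtggcCAAATGgggag
Ralgapb, position 158446182 of chromosome 2: cattggttgcCAAATGgaaat
Mark4, position 19431787 of chromosome 7: tccttgttgcCAAATGgcaaa
Uevld, position 46924807 of chromosome 7: atacagtagcCAAATGtcatg
Ip6k1, position 108047224 of chromosome 9: acctggtggcCAAATGattca
Hnrnph1 noncoding exon, position 50383745 of chromosome 11: ttacggtagcCAAATGctagg
Hnrnph1 coding exon, position 50383896 of chromosome 11: ttatggtagcCAAATGatggg
Ppp2r5c, position 110561441 of chromosome 12: gacagttagcCAAATGtgttt
Gm49168, position 34218221 of chromosome 14: ttatggtagcCAAATGatgga
Gm20518, position 17841431 of chromosome 16: ctaatgtggcCAAATGtttgc
Fam131a, position 20701948 of chromosome 16: cctctgtggcCAAATGtgggc
Ppil1, position 29251171 of chromosome 17: gaattgttgcCAAATGaaaaa

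The letters GC stood directly before CAAATG at 14 of 14 such sites, against 19 of the 208 background cytosines with CAAATG. The longer run GTNGC stood there at 13 of 14 sites and at 2 of 208 background cytosines. This likeness was noticed after the sequences were printed, and it is a description of the list, with no test.

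In pLF 990013 and 1657017 cytosines were listed, at a median coverage of 395 and 390 reads. In pHF the numbers were 1232581 and 797260, at 335 and 920 reads. The second pHF library stood apart. It listed 38353 cytosines with a level over 0.9, against at most 3465 in the other 3 libraries, and these had a median coverage of 12 and lay outside annotated genes in 74.4% of cases. Unconverted reads made up 0.176% and 0.181% of reads at background cytosines (level under 0.05) in pLF, 0.187% in the first pHF library and 0.128% in the second. On coverage per gene, the first pLF library was the farthest from the others: Pearson's r over 2460 genes, which share each library's depth and are no independent replicates, was 0.861 between it and the second pHF library and up to 0.967 between the other libraries. That highest value joined different groups, pLF replicate 2 and pHF replicate 1. Replicates correlated at 0.935 in pLF and 0.955 in pHF. For site levels the same mixed pair had 0.832, against 0.804 within pLF and 0.732 within pHF. Over the cytosines each library listed, with 7663 genes, the pHF replicates were closest, at 0.852. Values with a library left out are given for the counts of calls and for many of the gene lists, beside them or among the limits at the end.

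Of the 192 high-confidence sites listed for pLF or pHF, 177 were read at least 20 times in every one of the 4 libraries and were tested. The other 15 were 8 sites absent from at least 1 list and 7 below that coverage, among them sites in Enah, Map1b, Nid2, Pvt1 and Mapk14. The tested sites lay in 165 genes. Of them, 92 lay in coding sequence, 61 in 3′UTRs, 9 in 5′UTRs, 7 in exons of noncoding transcripts, 7 in no gene and 1 in an intron. The base after the cytosine was A at 51.4% of sites against 31.9% of background cytosines, and G filled the next 3 positions at 63.8%, 62.7% and 50.8% of sites against 33.6%, 30.4% and 30.9%. T was nearly absent at the second position after the cytosine, with 2.26% of sites against 21.1%.

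Across the 177 sites the methylation level was much alike at both folate concentrations. The pLF libraries had a median level of 15.4% and 15.4%, the pHF libraries of 16.2% and 16.3%, and the pMF libraries of 14.7% and 15.1%. Both pHF values lay above both pLF values, by 0.885 percentage points on average, and the exact two-sided permutation test gave that smallest possible p, 0.33. The 177 sites include 50 listed for pHF only and 37 for pLF only. Each entered through its level in these same libraries, so this median partly follows the listing. At the 90 sites that the study lists for both conditions, the median was 19.6% and 19.4% in pLF and 24.0% and 22.6% in pHF. The local background, the unconverted share of other cytosines within 50 bases, had a median of 0.266% and 0.388% in pLF and 0.337% and 0.358% in pHF, so the groups overlapped.

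By Fisher's exact test on reads summed over replicates, the test of the study, which has no error term between replicates, 62 of the 177 sites passed an adjusted p of 0.05 (35.0%): 48 were higher in pHF (27.1%) and 14 were lower (7.91%). Both replicates of one group lay outside the range of the other at 81 sites (45.8%), at 59 with pHF higher (33.3%) and at 22 with pHF lower (12.4%). Both conditions held together at 51 sites, 41 higher and 10 lower. A site entered the list of a condition through its level in these same libraries, so the direction of a site listed for 1 condition is partly set by that choice: of 50 sites listed for pHF only, 26 passed and 26 were higher, and of 37 listed for pLF only, 11 passed and 10 were lower. Among the 90 sites listed for both, where neither condition was favoured, 25 passed, 21 higher and 4 lower in pHF.

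**Figure D1:**
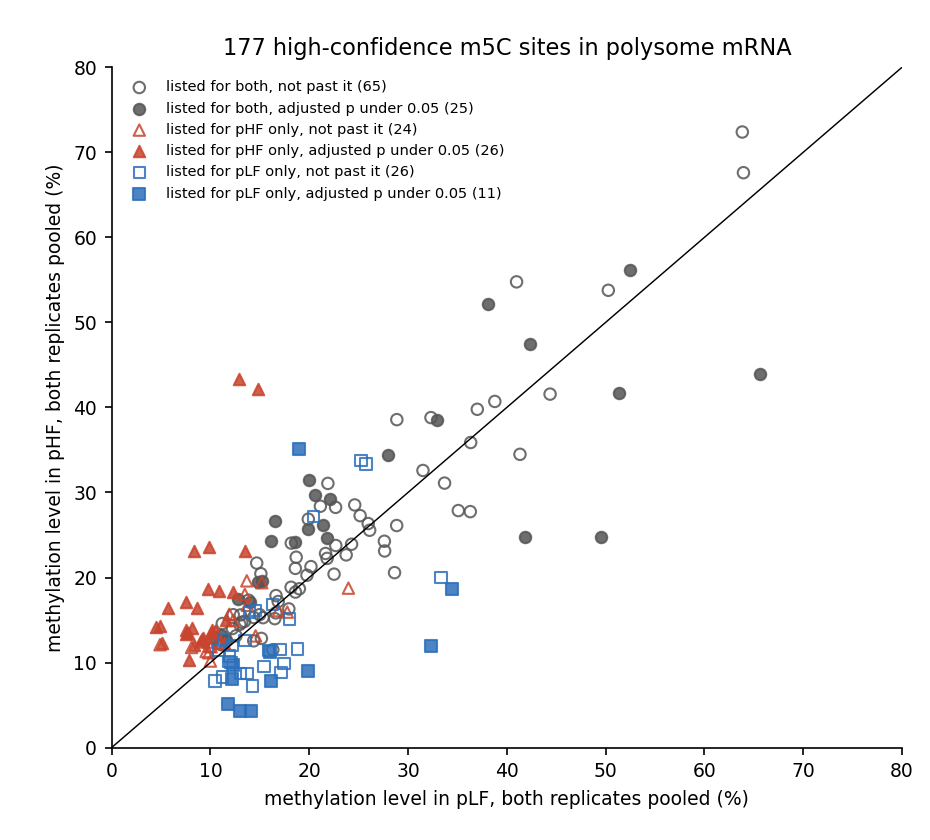
Methylation level of each of the 177 tested sites in pLF (x axis, %) and in pHF (y axis, %), with the reads of both replicates pooled; filled symbols mark an adjusted p under 0.05 by Fisher's exact test, symbols and colours the condition the study lists the site for, and the line equal levels. More filled symbols lie above the line (48) than below it (14), and the triangles (listed for pHF only) that are filled are all above it.

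The next 20 sites were taken from the 51 that passed and did not overlap, so the separation of their groups was a condition of entry. Among those lower in high folate, Rab11fip1, which encodes a Rab11 effector of recycling endosomes, had the largest difference. Its 3′UTR cytosine in exon 6 had a level of 50% (95% Wilson interval 35.8 to 64.2) and 49.1% (36.6 to 61.7) in pLF and 22.4% (13.0 to 35.9) and 26.8% (17 to 39.6) in pHF, at coverages of 44, 57, 49 and 56 reads. The replicates nearly coincided within each group and the groups did not overlap (Fisher's exact test, adjusted p = 0.00178). The pMF libraries lay between them, at 44.8% and 37.8%. The local background around this cytosine was 9.72% in pLF replicate 1 and 0% in pLF replicate 2 and both pHF libraries. No molecular identifiers are described for these libraries, so reads are not independent molecules, and intervals and Fisher's p-values cover counting error only. Fahd2a, of the fumarylacetoacetate hydrolase family, had 22.8% and 36.4% in pLF and 20.9% and 9.25% in pHF, so that the first replicates lay close together and the second far apart (adjusted p = 1.97e-06).

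The transcription factor gene Foxp4 carried 2 of the lower sites, 1 starting CTCCA and 1 starting CCGGG. Site 1, in exon 6, had 16.2% and 11.8% in pLF and 7.32% and 2.91% in pHF. Site 2, in exon 7, had 16.4% and 10.3% in pLF and 5.88% and 2.82% in pHF. In both, every pHF library was below every pLF library, and the adjusted p was 0.000626 and 0.0496. Prrc2c, which encodes an RNA-binding protein, had 34.1% and 12% in pLF against 9.56% and 8.66% in pHF, so its size rested on the first pLF library (Fisher's exact test, adjusted p = 0.000985, and 0.487 without that library). Ttc39c had 42.9% and 40.9% against 27.5% and 22.8%, and an intronic cytosine of Tmem176a had 14.0% and 17.5% against 10.8% and 4.96%.

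In the other direction, the largest difference was at Gm13882, a pseudogene. Its level was 6.25% and 15.9% in pLF and 18.8% and 53.1% in pHF (adjusted p = 1.23e-05), and the second pHF library alone was far above the rest; without it the adjusted p was 0.628. Between 30.3% and 36.7% of the reads at this position carried a base other than C or T and were left out of the level; such reads exceeded 5% at 2 of the 177 sites. Flad1, the FAD synthase, had 15.4% and 14.3% in pLF and 40% and 43.2% in pHF at coverages of 20 to 37 (adjusted p = 0.00737). Here the replicates of each group lay close together. The pMF libraries, at 46.7% and 72.7% with only 15 and 11 reads, were above both ends of the dose range. The local background around the Flad1 cytosine was 5.71% and 4.17% in pLF and 6.25% and 0% in pHF.

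Crtap, a member of the complex that hydroxylates collagen prolines, rested on deeper coverage, 248 to 597 reads: 6.31% and 9.04% in low folate and 13.7% and 18.5% in high folate, with 10.6% and 13.9% in pMF (adjusted p = 1.44e-07). Gpr137, a membrane protein, had 15.2% and 17.1% against 30.0% and 24.7%. Gpaa1, a subunit of the transamidase that attaches GPI anchors, had 0.800% and 7.27% against 14.1% and 14.5% in its 5′UTR. In all 3 genes every pHF library was above every pLF library, as the selection required. The same held for Klhl26 (36.2% and 43.8% against 48.7% and 53.5%), for Ralgapb of the Ral GTPase-activating complex (3.23% and 4.81% against 16.0% and 12.9%) and for Ltbp4, which binds latent TGF-beta (2.56% and 8.33% against 19.6% and 15.1%). The amino acid transporter Slc43a2, the endoplasmic reticulum isomerase Fkbp9, Samd14 and 2 sites outside genes, on chromosomes 13 and 18, completed the 20. Their levels ran from 6.17% to 21% in pLF and from 14.0% to 31.3% in pHF. Among the 20, Rab11fip1, Ttc39c, Klhl26, Gpr137, Slc43a2 and Samd14 are listed for both conditions, while the other higher sites are listed for pHF only and the other lower ones for pLF only. The smallest pooled difference of the 20 was 8.20 points, and the next of the 51 sites that passed and did not overlap had 7.70. Larger differences at sites that overlapped were left out, among them Myo6, which passed with a pooled difference of -21.8 points. The mean of pMF lay between the means of pLF and pHF at 13 of the 20 sites, and at 67 of the 174 sites with a value in both pMF libraries. The 20 were chosen for a wide gap between the ends, which favours a value inside it. No trend with dose was tested. The chromosome 13 site shares its 21 bases with 2 other listed sites outside genes, on chromosomes 2 and 10.

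**Figure D2:**
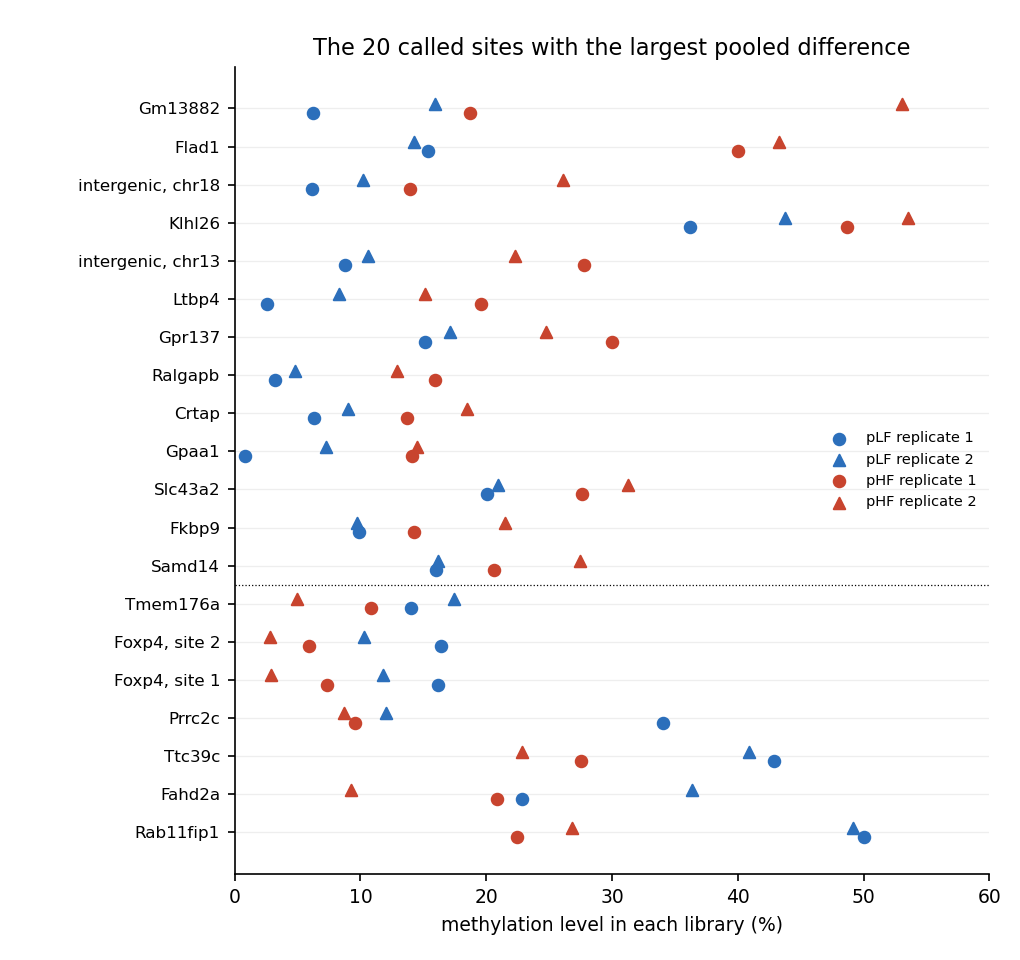
Methylation level in each library (x axis, %) for the 20 sites with the largest pooled difference among those with an adjusted p under 0.05 and no overlap between groups; blue marks pLF, red pHF, circles replicate 1 and triangles replicate 2, and the dotted line parts the 13 higher from the 7 lower sites. The pHF symbols lie to one side of the pLF symbols in every line, with wide gaps in Rab11fip1 and Flad1 and 1 distant library in Gm13882 and Prrc2c.

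The genes the study names in its text carried 34 of the tested sites, more deeply covered than the rest. Of these, 17 passed Fisher's exact test, 16 higher and 1 lower in pHF, against 35.0%, 27.1% and 7.91% of all 177 sites. The genes were chosen by the study on these samples and are no independent evidence of direction. Fscn1, which encodes the actin-bundling protein fascin, had 18.1% and 19% in low folate and 25.6% and 23.3% in high folate (pMF 19.1% and 20.6%), at coverages of 9135 to 14157 reads. The groups did not overlap and differed by 5.65 points pooled (adjusted p = 6.31e-50 by Fisher's exact test). Fbln2, a fibulin of the extracellular matrix, had 32.3% and 33.7% against 42.3% and 36.4%, and here the pHF replicates were farther apart than the nearest libraries of the groups. Smaller differences at high coverage were those of Atn1 (9.53% and 10.8% against 14.2% and 13.4%), the collagen gene Col1a2 (8.04% and 7.44% against 10.1% and 10.3%) and Slc25a4, the ADP/ATP carrier of mitochondria (10.3% and 11.5% against 14.0% and 12.7%).

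Ccdc107, Cenpv, Cdca4, Wbp2, Ybx3 and the NF-kappaB subunit gene Rela also passed with every pHF library above every pLF library. In Rela the level was 42.6% and 42.2% in pLF and 52.9% and 45.1% in pHF. Rptor, a subunit of mTORC1, passed (adjusted p = 0.0168) although its groups overlapped, with 16.6% and 25.4% in pLF and 27.8% and 25.4% in pHF. Igfbp4, which binds insulin-like growth factors, was the 1 site of these genes to pass in the lower direction, with 17.1% and 15.1% in pLF and 8.94% and 13.1% in pHF (adjusted p = 0.00171). Sites of Foxo3, Cotl1, Surf4, Gtf3a and Hdgf did not pass, with pooled differences of at most 1.77 points in size, and neither did Cbs, the first enzyme of transsulfuration, with 10.5% and 11.7% against 20.6% and 11.4%.

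By sequence, 44 sites started CNGGG, the NSUN2-type motif (24.9% of sites and 2.38% of background cytosines), and 16 of them passed, 10 higher and 6 lower. Over all 177 sites, 35.0% passed, 27.1% as higher and 7.91% as lower. Of 11 sites starting CTCCA, the NSUN6-type motif, 4 passed, 3 higher (Crtc1, Adamts14 and the kinesin gene Kif3a) and 1 lower (Foxp4 site 1). The 3 higher sites are listed for pHF only and Foxp4 site 1 for pLF only, so the listing favoured these directions. Of 14 sites starting CAAATG, 6 passed and 6 were higher, among them Ralgapb, Uevld (4.10% and 12% against 12.8% and 18.5%) and the coding exon of the splicing factor gene Hnrnph1 (22.8% and 21.1% against 27.3% and 23%). Of these 6, only the Hnrnph1 site is listed for both conditions and the other 5 for pHF only, so their direction is no support. The other 108 sites gave 36 calls, 29 higher and 7 lower. By position, 36 of 92 coding sites passed (27 higher and 9 lower) and 17 of 61 in 3′UTRs (14 higher and 3 lower). No test of a difference between these classes was made. Coverage moved with the calls: 18 of the 25 sites with a mean coverage of at least 1000 passed, 17 of them higher, against 24 of the 83 sites below 200, of which 15 were higher.

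With all 4 libraries, tests with an error term between replicates called 0 to 3 sites. The median absolute difference between the 2 replicates was 3.09 points in pLF and 4.00 points in pHF. Between the means of the groups, which average 2 libraries each and so vary less than single libraries, it was 3.70 points. A beta-binomial test with 1 overdispersion shared by the 177 sites called 1 site (0.565%), Gm13882 (adjusted p = 0.0252), with 20 sites at an unadjusted p under 0.05. With the overdispersion estimated within classes of coverage, it called 1 site (0.565%), Glod4 (adjusted p = 0.00578), with 22 sites at an unadjusted p under 0.05, and limma on the log odds called 0, with 19. Glod4, Gm13882 and Crtap are listed for pHF only, where they are high. Glod4, which encodes a glyoxalase domain protein, was singled out after its values were seen: it had 9.57% and 13.8% in low folate and 21.1% and 17.1% in high folate (pMF 13.2% and 15.8%), at coverages of 2509 to 5888, and the groups did not overlap. By the same test Fscn1 and Crtap reached unadjusted p-values of 0.00251 and 0.0015 and adjusted p-values of 0.099 each. Without the second pHF library the Fisher count fell to 36 (29 higher and 7 lower), and without the first pLF library to 40 (29 higher and 11 lower).

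A wider set was taken from the deposited lists by thresholds alone: cytosines with a level of at least 0.1 and 6 methylated reads in both replicates of pLF or of pHF. Of 860 such cytosines, 126 passed Fisher's exact test (14.7%), 59 higher (6.86%) and 67 lower (7.79%) in pHF. The groups did not overlap at 117 with pHF higher (13.6%) and at 120 with pHF lower (14.0%). This filter favoured a direction at cytosines that met it in 1 group: of the 83 that met it in pLF only, 30 passed, 29 of them lower, and of the 69 that met it in pHF only, 28 passed, 27 of them higher. Among the 708 that met it in both groups, 68 passed, 31 higher and 37 lower. By class, isolated nuclear cytosines gave 46 higher and 17 lower of 193, cytosines within 25 bases of another gave 13 higher and 43 lower of 660, and the mitochondrial genome gave 7 lower of 7. Most isolated cytosines are high-confidence sites already described: cytosines on the study's list gave 45 of the 59 higher calls. The 19 isolated nuclear cytosines not on it gave 1 higher and 7 lower, with a median difference of -4.08 points. The clustered cytosines were mostly unconverted in all libraries, with medians of 98% and 98.3% in pLF and 97.1% and 100% in pHF, which is above the median of 15.2% to 16.2% of isolated cytosines. The later filters of the study, which bear on clusters and local background, were not applied to this wider set.

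The 7 mitochondrial cytosines all lay in the coding sequence of mt-Co1, cytochrome c oxidase subunit I. All 7 met the filter in pLF only, so their lower levels in pHF were favoured by it and are given as a description. At position 5963 the unconverted share was 25% and 14.4% in pLF and 5.93% and 0.382% in pHF, at coverages of 64, 196, 236 and 262 reads. At position 5907 it was 20.8% and 18.2% against 7.14% and 0.837%. All 7 kept the same order, with the second pHF library lowest, between 0.350% and 1.37%, and pHF replicate 1 below both pLF libraries.

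The second pHF library was lowest at most lower calls: at 58 of the 67 called by Fisher's exact test, and at 18 of the 18 lower calls of the beta-binomial test, which made 19 calls in all (2.21%). In 14 of those 18 it held under 6%. Of the 18, 14 met the filter in pLF only, and so did the cytosines of Ccnd1, Hnrnpa2b1 and Eif3e that follow, so their direction is no support. The 3′UTR of Ccnd1, cyclin D1, had 55.4% and 39.9% in pLF and 29.7% and 5.75% in pHF at position 144931128. The 3′UTR of Hnrnpa2b1, an hnRNP gene, had 50.1% and 33.1% against 30.6% and 3.71%, and Eif3e, an initiation factor subunit, 31.7% and 17.5% against 17.1% and 0.345%. In each the pHF libraries differed from each other by more than the first pHF library differed from its nearest pLF library. Without the second pHF library, 50 cytosines passed, 31 higher and 19 lower, so the larger number then lay on the higher side. What sets that library apart was not tested.

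In some genes many neighbouring cytosines lay on the same side, and in Ankrd13c 1 passed as higher and 1 as lower. Hic1, a transcriptional repressor gene, held 11 such cytosines between positions 75166998 and 75167062 of chromosome 11, of which 10 were higher in both pHF libraries than in both pLF libraries and 6 passed. At position 75167003 the share was 15.3% and 26.1% in pLF and 33.5% and 36.7% in pHF, and the gene's medians were 16.1% and 20.8% against 26.5% and 26.7%. In the 5′UTR of Eif4ebp2, which encodes an inhibitor of cap-dependent translation, 7 of 12 cytosines within 17 bases did not overlap, with pHF higher, and 2 passed. Over all 860 cytosines, 13.6% did not overlap with pHF higher and 14.7% passed in either direction. Other clusters passed only as lower, at 9 of 20 cytosines in Atxn10, 6 of 11 in Ccny and 4 of 10 in Samd1. The medians of Samd1 were 44.8% and 46.9% in pLF and 40.9% and 26.3% in pHF. An intron of Cmss1 had 7 cytosines at coverages of at least 3865, all of which passed as lower, but with medians of 25% and 29.1% in pLF and 26.0% and 20.8% in pHF the first pHF library lay inside the range of pLF. Cytosines of a cluster are read on the same molecules and are not independent.

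**Figure D3:**
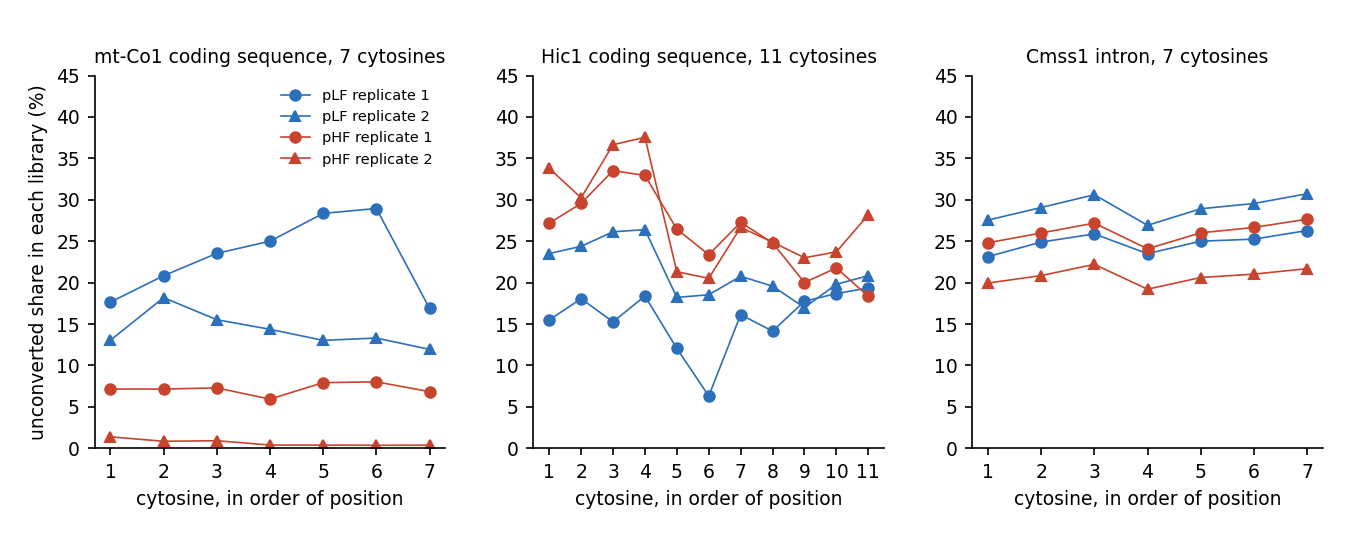
Unconverted share (y axis, %) at neighbouring cytosines of mt-Co1, Hic1 and the Cmss1 intron, in order of position (x axis), with 1 line per library; blue marks pLF, red pHF, circles replicate 1 and triangles replicate 2. The pHF lines lie below the pLF lines throughout mt-Co1, above them at 10 of 11 cytosines of Hic1, and around them in Cmss1.

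Coverage at background cytosines gives a second readout, the amount of each transcript in the polysome fractions, for which no separate count was used here. For each gene the median coverage over its background cytosines was taken, on a log2 scale, and centred on the library's median gene; a lower number of polysomal molecules and shorter sequenced stretches cannot be told apart in it. With the cytosines that each library listed, 7663 genes could be tested and limma called 1 (0.0130%), Dynll1, a dynein light chain gene. At an unadjusted p under 0.05 there were 323 genes higher (4.22%) and 138 lower (1.80%). The median coverage of Dynll1 was 208 and 303 reads in pLF and 3219.5 and 6224.5 in pHF, a log2 difference of 3.86 ± 0.45 (SE, adjusted p = 0.0223), and in pMF it was 3042.5 and 162. The libraries listed 151 and 229 cytosines of Dynll1 in pLF and 126 and 74 in pHF, and over the cytosines listed in all 4 libraries its log2 difference was 0.05. Without either pHF library 0 genes passed, and without the first or the second pLF library 71 and 175 did. A list holds only cytosines with at least 1 unconverted read, so the set of cytosines behind a median changes with depth. Tmx1 and Eif4e, next by p, had log2 differences of 3.52 and 3.54 on the listed cytosines and of 0.11 and 0.20 on the shared ones. Of the genes that followed, Anapc4 had 3.16 and 0.18 and Cdk8 3.07 and 0.23, while Gm21596, Vbp1 and Mkln1 had too few shared cytosines.

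The comparison of genes was therefore also made over the cytosines listed in all 4 libraries, which left 2460 genes and gave correlations between libraries of 0.861 to 0.967, against 0.789 to 0.852 before. Limma then called 0 genes (0%), with 216 higher (8.78%) and 115 lower (4.67%) at an unadjusted p under 0.05, and the groups did not overlap at 568 genes with pHF higher (23.1%) and at 570 with pHF lower (23.2%). Without the first pHF library 25 genes passed, without the second pLF library 2, and without the second pHF library 1. With all 4 libraries and no replicate block, no gene named below passed the adjusted threshold. A replicate block in the fit gave more calls, as stated among the limits at the end. In what follows a relative coverage of 1 is the median gene of the library, each value is per position and thus per length, and the differences are log2 values with a median of -0.02 over all genes. Fewer cells of a type and less RNA per cell cannot be told apart in such samples.

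The genes of the amino acid response, which the transcription factor ATF4 switches on when amino acids are short or the endoplasmic reticulum is stressed, lay higher in pHF on both sets of cytosines. This list and the others below were chosen with earlier results of these data known. Their shares are therefore a description and no independent support. Of 26 genes 20 were tested, 13 had an unadjusted p under 0.05 and all 13 were higher in pHF (8.78% of all genes were), and the groups did not overlap at 15, each time with pHF higher (23.1% of all genes). The median log2 difference was 0.67, against -0.02 over all genes, and ranged from 0.48 to 0.76 when each library was left out in turn. On listed cytosines 24 were tested, 5 had an unadjusted p under 0.05, all higher (4.22% of all genes there), 13 did not overlap and were higher, against 15.4% of all genes on listed cytosines (21.1% were lower), and the median was 0.53. Atf4 itself had a relative coverage of 0.967 and 1.86 in pLF and 2.38 and 3.53 in pHF, 2.16-fold higher (adjusted p = 0.226). Ddit3, the stress-induced factor CHOP, had 1.35 and 2.93 against 5.79 and 4.93, and Cth, the second enzyme of transsulfuration, 0.275 and 0.593 against 0.831 and 1.43. The cystine transporter gene Slc7a11 had 0.295 and 0.755 against 1.12 and 1.12, and asparagine synthetase, Asns, 0.579 and 1.08 against 1.09 and 2.06. At all 5 of these genes the first pLF library was the lowest of the 4, and on the log2 scale the pLF replicates were farther apart than the nearest libraries of the groups. Their log2 differences were 0.92 (Asns) to 1.44 (Cth), 0.47 (Asns) to 0.88 (Cth) without the first pLF library and 0.46 (Asns) to 1.54 (Ddit3) without the second pHF library. These 5 genes had the largest differences of the 20 tested. The smallest were those of Ddit4 (-0.04), Cebpb (0.12), Sesn2 (0.20) and Psat1 (0.23). Psat1 had -0.02 without the second pHF library. The list's median relative to the library, on the log2 scale, was 0.34 and 0.55 for low folate and 0.93 and 1.10 for high folate, and the pMF libraries had 0.65 and 0.93.

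Aminoacyl-tRNA synthetases, which load amino acids on tRNAs, were higher in pHF in the same way: of 17 tested, 11 had an unadjusted p under 0.05, all higher, and 12 did not overlap and were higher, against 8.78% and 23.1% of all genes. On listed cytosines these were 2 and 10 of 17, against 4.22% and 15.4%. As above, the list was chosen with earlier results known. The median log2 difference was 0.52, and 0.58 on listed cytosines. On shared cytosines it was 0.28 without the first pLF library and 0.79 without the first pHF library. Rars had 0.905 and 1.45 in pLF and 1.79 and 2.94 in pHF, Nars 1.79 and 2.35 against 3.13 and 3.87, and Gars 1.25 and 1.48 against 2.04 and 2.61. Qars, Vars and Kars had log2 differences from -0.03 to 0.05. Serine and one-carbon supply genes, of which 5 also belong to the amino acid response list, gave 6 tested and 5 not overlapping, all higher (23.1% of all genes), with a median of 0.46. On listed cytosines 2 of 10 did not overlap and were higher (15.4% of all genes), with a median of 0.52. Among them Psph, the last enzyme of serine synthesis, had 2.38 and 3.72 against 4.74 and 5.98, Shmt2, which moves the one-carbon unit of serine to folate in mitochondria, 1.32 and 1.54 against 1.89 and 2.24, and Mthfd2, of the same pathway, 1.28 and 1.82 against 2.01 and 2.30. In each the pHF libraries lay above the pLF libraries, with adjusted p-values from 0.226 to 0.378.

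**Figure D4:**
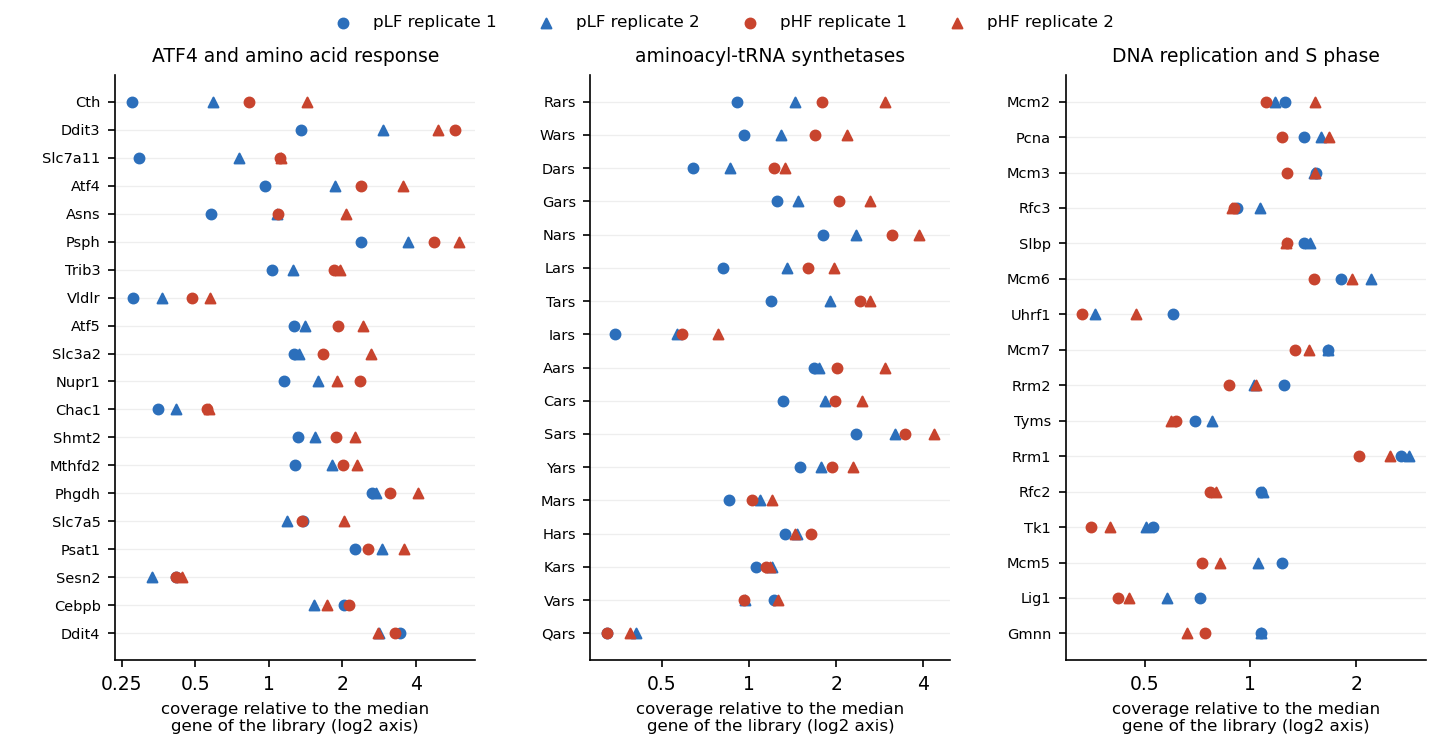
Coverage relative to the median gene of each library (x axis, log2 scale) for the tested genes of 3 lists, over cytosines listed in all 4 libraries; blue marks pLF, red pHF, circles replicate 1 and triangles replicate 2. Most amino acid response genes and tRNA synthetases have red symbols to the right of the blue ones, while genes of DNA replication have them to the left or among them.

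The folate cycle itself showed no common direction, with a median of -0.05 on shared and 0.16 on listed cytosines. Of 29 genes 7 were tested, with 3 not overlapping and higher (Shmt2, Mthfd2 and the purine synthesis gene Atic) and 3 not overlapping and lower: thymidylate synthase Tyms, thymidine kinase Tk1 and Sardh, against 23.1% and 23.2% of all genes. On listed cytosines 2 of 20 were higher and 4 lower without overlap, against 15.4% and 21.1%. Tk1 had 0.530 and 0.506 in pLF and 0.351 and 0.399 in pHF, and Tyms 0.696 and 0.779 against 0.613 and 0.596. On listed cytosines Tyms turned, with a log2 difference of 1.21. In the methionine cycle and transsulfuration, 6 of 18 genes were tested; Cth apart, their log2 differences lay between -0.07 and 0.18, Mat2a, which makes S-adenosylmethionine, having 0.348 and 0.395 against 0.373 and 0.444. On listed cytosines the values differed: 14 were tested, 4 did not overlap and were higher and 1 lower, and the median was 0.61, against 0.06 on shared ones, with log2 differences of 0.61 for Mat2a, 0.89 for Odc1, which makes polyamines, and 1.64 for Ahcyl1. Among m5C writers and readers 6 of 17 were tested, with 2 higher and 1 lower without overlap and a median of -0.10. On listed cytosines 0 of 9 were higher and 1 lower without overlap, with a median of 0.13. Nsun2, the writer, had 0.790 and 0.937 in pLF and 1.23 and 1.36 in pHF (1.50-fold, unadjusted p = 0.0181 and adjusted p = 0.303 by limma), Nop2, a methyltransferase of ribosomal RNA, 0.583 and 0.656 against 0.787 and 0.936, and the reader Alyref 0.917 and 0.851 against 0.732 and 0.580. The reader Ybx1 had 2.43 and 2.73 against 2.46 and 2.53, and its groups overlapped.

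Genes of DNA replication lay lower in pHF on shared cytosines, less clearly on listed ones. Of 16 tested on shared cytosines, 10 did not overlap and all 10 were lower (23.2% of all genes), 4 had an unadjusted p under 0.05 and were lower (4.67%), and the median log2 difference was -0.25, from -0.39 to -0.17 with a library left out. Gmnn, the inhibitor of replication licensing, had 1.08 and 1.07 in pLF and 0.743 and 0.658 in pHF, Mcm5, of the replicative helicase, 1.23 and 1.05 against 0.726 and 0.817, and the DNA ligase Lig1 0.718 and 0.579 against 0.420 and 0.452. On listed cytosines 35 were tested, 13 not overlapping and lower and 6 higher (21.1% and 15.4% of all genes there), 1 lower and 3 higher at an unadjusted p under 0.05, with a median of -0.09, and there Mcm5 had a log2 difference of 0.40. Other helicase genes of the same complex, Mcm2, Mcm3 and Mcm6, overlapped between groups. Of 9 genes of mitosis, 3 did not overlap and were lower (Cdc20, Cdca8 and Aurka), against 23.2% of all genes, with a median of -0.27 that was -0.02 without the first pHF library. On listed cytosines 1 of 21 was higher and 4 lower, with a median of -0.03. The nuclear-encoded respiratory chain gave 67 tested, 24 not overlapping and lower and 5 higher, against 23.2% and 23.1% of all genes, with a median of -0.15 that was -0.06 without the second pLF library and -0.24 without the first. On listed cytosines 17 of 71 were lower and 3 higher, near the 21.1% of all genes on the lower side, with a median of -0.22. Of cholesterol synthesis genes 9 were tested, 5 not overlapping and lower and 1 higher (23.2% and 23.1% of all genes), with a median of -0.27, and on listed cytosines 7 of 18 were lower and 1 higher, with a median of -0.38.

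Of 37 translation factors tested, 16 did not overlap, all higher (23.1% of all genes), with a median log2 difference of 0.16 that was 0.10 without the first pLF library and 0.26 without the second. On listed cytosines 10 of 45 were higher and 5 lower without overlap, against 15.4% and 21.1% of all genes. Subunits of initiation factors led, Eif3c with 1.26 and 1.99 against 2.67 and 3.80 and Eif2s2 with 1.05 and 2.10 against 2.63 and 2.92, while elongation factor Eef2 had 11.2 and 8.67 against 8.34 and 9.75. The 61 cytosolic ribosomal protein genes had 5 higher and 5 lower without overlap (23.1% and 23.2% of all genes) and a median of 0.02, which turned to -0.09 without the first pLF library. Endoplasmic reticulum chaperones split as well. Hspa5, the chaperone BiP, had 1.16 and 1.26 in pLF and 2.08 and 3.17 in pHF (2.12-fold, adjusted p = 0.139) and Hsp90b1 1.55 and 1.94 against 2.66 and 2.70, whereas Manf had 1.69 and 1.75 against 1.43 and 1.29 (a log2 difference of 0.07 on listed cytosines). Of 13 tested, 4 did not overlap and were higher and 2 lower, near the shares of 23.1% and 23.2% over all genes, with a median of 0.22 that was 0.00 without the second pHF library. On listed cytosines 6 of 18 were higher and 0 lower, with a median of 0.29.

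On shared cytosines Ero1l, an oxidase of endoplasmic reticulum protein folding, came nearest to the threshold of all genes tested there. It had 0.418 and 0.520 in pLF and 1.15 and 1.38 in pHF (log2 difference 1.44, adjusted p = 0.0913 by limma). Ppp1r15a, which restores translation after stress, had 1.17 and 1.63 against 3.21 and 3.14, and the mitochondrial chaperone Hspa9 1.47 and 2.41 against 4.03 and 5.22. On the lower side were Fabp5, a fatty acid binding protein, with 1.16 and 1.01 against 0.578 and 0.533, and the apolipoprotein gene Apoe, with 8.53 and 7.41 against 4.83 and 4.73 (adjusted p = 0.139 for both). In all 5 genes the replicates of a group lay closer to each other, on the log2 scale, than the nearest libraries of the groups. These genes were picked by their small p, which favours such closeness.

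**Figure D5:**
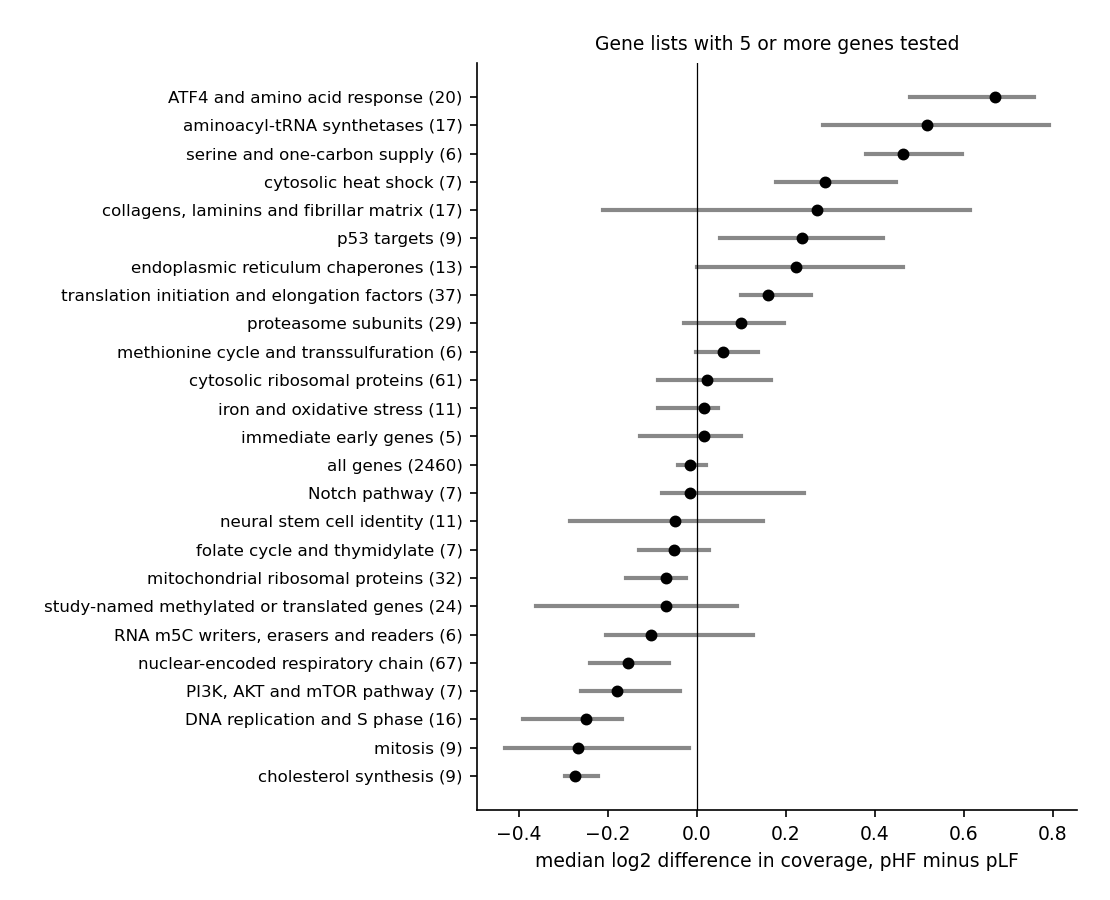
Median log2 difference in coverage between pHF and pLF (x axis) for each list with 5 or more tested genes, given in brackets, over cytosines listed in all 4 libraries; points use all 4 libraries and bars span the values with each library left out in turn. The amino acid response, tRNA synthetases, serine supply, cytosolic heat shock, p53 targets and translation factors stay above 0. The bar of endoplasmic reticulum chaperones starts at 0.00. DNA replication, mitosis, cholesterol synthesis, the respiratory chain, mitochondrial ribosomal proteins and the PI3K, AKT and mTOR pathway stay below 0. The bar of collagens and laminins crosses 0.

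The libraries held the transcripts of NSCs. Of 25 NSC genes 21 had at least 10 background cytosines in all 4 libraries, Vim and Fabp7 with a relative coverage of 15.1 and 4.55 in the first pLF library, while Gfap had at most 2 and the cytosines of Sox2 carry the name of the overlapping Sox2ot. Among NSC identity genes 11 were tested for a difference, with 4 higher and 2 lower without overlap (23.1% and 23.2% of all genes). On listed cytosines 4 of 21 were higher and 8 lower (15.4% and 21.1% of all genes). The median on shared cytosines was -0.05, which turned to 0.15 without the first pLF library and to 0.08 on listed cytosines. The glutamate transporter gene Slc1a3 had 0.362 and 0.626 in pLF and 0.786 and 1.07 in pHF, the matrix gene Tnc 0.627 and 0.546 against 0.876 and 1.01, and Id3, an inhibitor of differentiation, 1.24 and 1.16 against 0.820 and 0.821.

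Most genes that mark other cells had few cytosines or none, but some were deeply covered. Tagln, of the mural and fibroblast list, had a median coverage of 2865 and 4539.5 in pLF and 3884 and 6429.5 in pHF. Olig1, of the oligodendrocyte list, had 5733.5 and 4939 against 4114 and 5717. Aldoc, of the astrocyte list, had 2051 and 3229 against 1786 and 4140. The NSC gene Nes had 1211 and 1264.5 against 1452 and 1575.5. At least 10 cytosines in all 4 libraries were listed for 0 of 8 endothelial and 0 of 6 ependymal markers, 1 of 11 microglial (9 were listed in none), 3 of 14 neuronal, 2 of 10 oligodendrocyte, 4 of 8 astrocyte and 5 of 13 mural and fibroblast markers. The astrocyte list summed to a median coverage of 3676 and 5174 in pLF and 3242 and 9206 in pHF, and the mural and fibroblast list to 7740 and 8661 against 6760 and 14421. In both lists the second pHF library, the deepest per cytosine, was highest and the first pHF library lowest. The median log2 difference of the mural and fibroblast list was 0.31 on shared cytosines, over 3 genes of which 1 did not overlap and was higher, and -0.29 on listed cytosines, over 5 genes. On shared cytosines this median was 0.03 without the second pLF library and 0.48 without the first. That of the astrocyte list was -0.32 on shared cytosines, over 3 genes of which 2 were lower and 1 higher without overlap, and 0.02 on listed ones, over 4 genes. On shared cytosines this median was -0.16 without the first pHF library and -0.49 without the second. That of the oligodendrocyte list was -0.45 on shared and -0.82 on listed cytosines, over 2 genes of which 1 did not overlap and was lower. On shared cytosines the oligodendrocyte median was -0.15 without the first pLF library and -0.74 without the second. In the list of collagens, laminins and other matrix genes, 8 of 17 tested genes did not overlap and were higher on shared cytosines (23.1% of all genes), and 9 of 36 were higher and 7 lower on listed ones (15.4% and 21.1%). Examples on shared cytosines were Lamb1 with 1.10 and 0.972 against 1.84 and 2.35 and Fbn2 with 0.336 and 0.354 against 0.597 and 0.695. The median of the matrix list was 0.27, 0.16 on listed cytosines, 0.61 without the first pLF library, 0.50 without the first pHF library, 0.04 without the second pHF library and -0.21 without the second pLF library. The part of other cell types in the differences was not tested.

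Site levels and coverage of the same gene were set side by side on shared cytosines for 54 of the 165 genes with a tested site and on listed cytosines for 150. On shared cytosines, genes with a site that passed as higher had a median log2 difference in coverage of -0.05 over 20 sites, and those with a site that passed as lower had 0.12 over 3. On listed cytosines the medians were -0.25 over 41 sites and -0.09 over 13, and single genes could differ widely between the measures, as Fkbp9 did with 1.11 on listed and -0.01 on shared cytosines. Fscn1, with its higher m5C level, had a relative coverage on shared cytosines of 4.88 and 2.40 in pLF and 2.84 and 3.40 in pHF, and Fbln2 1.54 and 0.786 against 1.11 and 1.36. In both genes the pHF libraries lay between the pLF libraries.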

How the data were processed

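RNA BS-seq of polysome mRNA was analysed in 4 libraries, grouped by their labels. Reads were trimmed (fastp), aligned to unique places in mm10 (meRanGh), and turned into annotated cytosine lists (meRanCall, meRanAnnotate) by the authors. The deposited counts give coverage, methylated reads and other bases for each cytosine, without scaling between libraries. The deposited level, a fraction, divides methylated reads by methylated plus converted reads. A list begins at coverage 10 with 1 methylated read, before the study's later filters. Positions marked as variant bases were excluded. The authors' fold changes were not used.

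Levels were recomputed as methylated reads over coverage less other bases, for cytosines read at least 20 times in every library compared. The high-confidence positions are the study's list. Reads summed over replicates were tested by two-sided Fisher's exact tests with Benjamini-Hochberg adjustment and a threshold of 0.05 (Python 3.11.15, numpy 2.4.6, pandas 2.3.3, scipy 1.17.1). Gene coverage was the median over cytosines with a level under 0.05, 10 or more per library, tested on the log2 scale with limma 3.58.1 (trend) in R 4.3.3. It was taken over the cytosines each library listed and again over those listed in all 4, on which the gene lists are described. Figures used matplotlib 3.10.9. Features came from GENCODE vM21. Tests were tried on simulated data.

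Named sites are the 20 that passed, did not overlap and differed most, and those of genes the study names; named genes are those nearest to the threshold and members of the lists. Members and lists were chosen with earlier results of these data known. At a coverage of 20, 1 read moves a level by 5 percentage points. Alternatives were other coverage and level minimums, tests, normalizations, sets of cytosines, a replicate block, and leaving out each library. The total mRNA libraries were not used here.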

Additional observations from a re-analysis of the deposited data

Results flagged for a closer look

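The second pHF library held 18155 cytosines with a variant base, which entered no comparison, against 5725 in the first pHF library and 6124 and 11495 in pLF. It also listed 38353 cytosines with a level over 0.9, against 2367, 1918 and 3465, and most of these also lay outside the sites and genes compared. Both counts were picked out because they come from data outside the main measurement and lie above those of the low folate libraries. Their source was not tested.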

How the results depend on the processing

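The 62 calls among high-confidence sites became 25 at the sites listed for both conditions, 1 by the beta-binomial test, 1 with overdispersion per coverage class, 0 by limma on the log odds (19 sites at an unadjusted p under 0.05) and 3 by limma with the replicate block. They ranged from 36 (without pHF replicate 2) to 55 (without pLF replicate 2), and the beta-binomial count was 0 without pLF replicate 1, 3 without pLF replicate 2, 5 without pHF replicate 1 and 0 without pHF replicate 2. The 126 calls of the wider set became 63 at a level minimum of 0.2, 71 among isolated nuclear cytosines with p-values adjusted over these alone (63 when adjusted over all), 19 by the beta-binomial test and 0 by limma, with (84 sites at an unadjusted p under 0.05) or without (106) the replicate block, and 50 to 118 with a library left out. The 1 gene called on listed cytosines became 0 with trimmed means, with cytosines of any level and with 6 libraries, 3 with 30 or more cytosines, 16 by mean coverage, 8 with the replicate block and 0 to 175 with a library left out (0 without either pHF library, 71 without pLF replicate 1 and 175 without pLF replicate 2). On cytosines shared by the libraries it became 0, also with array weights, in exons and with 6 libraries, but 12 with 3 or more cytosines, 57 with the replicate block, 0 without pLF replicate 1, 2 without pLF replicate 2, 25 without pHF replicate 1 and 1 without pHF replicate 2. The array weights on shared cytosines were 0.786 for both pLF libraries and 1.27 for both pHF libraries. They could therefore not set a single library apart from its replicate. Replicates of pLF and pHF share a number, and the labels do not say whether they share anything else. Their deviations correlated at r = -0.03 on listed and 0.16 on shared cytosines, across genes.

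On shared cytosines some genes turned. The gene Spc25 had -0.0011 with all libraries, -0.000934 in exons, -0.085 without pLF replicate 1 and -0.14 without pHF replicate 1. Array weights and the replicate block gave the same -0.0011, since neither can change a log2 difference in this balanced design. Without pLF replicate 1, Dynll1 had -0.094, Tmx1 -0.024, the gene Eif4e -0.00212 and Anapc4 -0.0301. Without pHF replicate 1, Dynll1 had -0.17, Tmx1 -0.025 and Cdk8 -0.12. The list medians of collagens (-0.21 without pLF replicate 2, 0.61 without pLF replicate 1), NSC identity (-0.29 without pLF replicate 2, 0.15 without pLF replicate 1, 0.068 without pHF replicate 2, 0.0804 on listed cytosines, 0.057 with 6 libraries) and ribosomal proteins (0.17 without pLF replicate 2, -0.087 without pLF replicate 1, -0.017 without pHF replicate 2, -0.069 on listed cytosines, -0.016 with 6 libraries) changed sign, as did those of the folate cycle (-0.05, and 0.03 without pHF replicate 1), of m5C writers and readers (-0.10, and 0.13 without pLF replicate 1) and, about 0, of the methionine cycle (-0.0019 without pHF replicate 2). The unconverted share (-0.021 points) ranged from -0.051 to 0.0083, the latter without pHF replicate 2, and the local background (0.02) from -0.041, without pLF replicate 1, to 0.081. The cause was not tested. The median site level kept its direction in every alternative run (up to 1.74 points). The sites listed for both conditions were not among these runs and differed more, with medians of 19.6% and 19.4% in pLF against 24.0% and 22.6% in pHF. The per-class test, the beta-binomial test with a library left out, the restriction to exons, and every further setting on shared cytosines were chosen after seeing the data.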
